A study of Mus musculus with 14 samples.

Results

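The cytosolic ribosomal protein genes were followed in mouse colon after gavage with the gut bacterium Bacteroides thetaiotaomicron or with phosphate-buffered saline (PBS). They were taken by name from the table of read counts: symbols that start with Rpl or Rps and a digit, or with Rplp, leaving out the 9 Rps6k kinase genes. This gave 94 of 21898 genes. Of these, 30 encode the standard proteins of the small (40S) subunit and 46 those of the large (60S) subunit. A further 8 are paralogs, 8 carry a pseudogene-style name ending in -ps and a number, and 2 are other genes, Rps19bp1 and Rps23rg1. Fau and Rpsa encode ribosomal proteins too but fall outside the name rule, and are given beside the members.

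The series has 7 samples of wild-type colon from mice gavaged with B. thetaiotaomicron and 7 from mice gavaged with PBS, and its title links the bacterium to saliva and to high blood pressure. B. thetaiotaomicron is a common anaerobe of the gut that feeds on dietary and mucosal polysaccharides. No source used here gives mouse strain, age, dose or duration. Apart from sample 1 of each group, the titles call the samples biological replicates. The labels do not say whether each sample is 1 animal, so p-values speak of the spread among these samples, which need not be that among animals. All 14 carry the same batch and treatment label.

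A ribosome is built from ribosomal RNA and about equal numbers of most ribosomal proteins, so their genes are known for being expressed together. In mammals their mRNAs begin with a 5′ terminal oligopyrimidine (TOP) tract, a run of pyrimidines with a C at the first base. Through it the mTOR kinase, acting by way of Larp1, controls how much of each mRNA is translated, which a count of RNA does not show. In the colon the crypt epithelium divides and secretes without pause, and makes ribosomes to match. Several of the proteins have other tasks: Rpl5 and Rpl11, bound to 5S ribosomal RNA, inhibit Mdm2 and so stabilise p53.

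The starts of several of these genes show the TOP signature in letters. RefSeq promoter windows (GRCm38.p6) were at hand for 66 members, 56 of them standard subunit genes. Each sequence below has the 35 bases before the RefSeq start and the first 15 bases from it, in the direction of transcription, with the pyrimidine run that begins at the start base in capitals. The first 4 were chosen as clear runs, on chr4:86857353-86857402 (minus strand), chr7:4792930-4792979 (plus), chr7:141447616-141447665 (plus) and chr17:27635230-27635279 (minus).
Rps6: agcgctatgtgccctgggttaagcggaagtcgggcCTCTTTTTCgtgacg
Rpl28: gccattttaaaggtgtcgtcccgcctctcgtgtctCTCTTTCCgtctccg
Rplp2: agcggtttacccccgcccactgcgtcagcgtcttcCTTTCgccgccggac
Rps10: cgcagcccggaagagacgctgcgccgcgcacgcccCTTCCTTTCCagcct

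The next 3 belong to 1 family and are shown because their genes differ in how they arose and in their level here. They lie on chr3:90213634-90213683 (minus), chr9:114982725-114982774 (minus) and chr9:66946051-66946100 (plus, the first of 2 windows).
Rps27: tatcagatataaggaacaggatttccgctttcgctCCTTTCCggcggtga
Rps27rt: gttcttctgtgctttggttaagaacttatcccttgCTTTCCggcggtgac
Rps27l: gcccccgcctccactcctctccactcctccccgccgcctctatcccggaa

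Rps27 encodes a zinc finger protein of the small subunit, and Rps27rt is a copy of it with 1 exon. Their windows share a run of 38 bases that begins at base 2 of the Rps27 start and at base 1 of the Rps27rt start, and the printed bases before it differ. Rps27l, a paralog known as a p53 target gene, has 4 exons like Rps27, and the longest run shared by its windows and that of Rps27 is 10 bases.

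The tract was counted by gene symbol, over all windows of each symbol. The motifs were chosen after these windows had been read, so the shares are descriptions. Each hexamer was sought on the sense strand between 30 bases before and 50 bases after the start. CTCTTT stood in 33.9% of the 56 standard subunit genes and in 3.57% of all 27025 gene symbols with a RefSeq window. CTTTCC stood in 30.4% and 4.36%, and CTTTTC in 16.1% and 3.31%. The hexamers can overlap each other, and at least 1 of them stood in 58.9% of the standard genes and 9.94% of all symbols. A start base of C followed by at least 4 pyrimidines was found in 23.2% of the standard genes and 3.01% of all symbols. RefSeq starts can lie some bases from the start used in colon, and no start was measured here.

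The next motifs were sought over the whole window of 300 bases and both strands. CCGGAAG, the core bound by ETS factors, stood in 41.1% of the standard genes and 9.93% of all symbols. TGACGTCA (the cyclic AMP response element) stood in 8.93% and 2.03%, AAGATGGC (YY1) in 8.93% and 3.19%, and GCGCATGCG (NRF1) in 5.36% and 1.95%. CACGTG, the E-box that Myc binds, was near its background, in 10.7% and 8.09%. TATAAA within 50 bases before the start was found in 0 of the 56 and in 3.15% of all symbols.

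The libraries held 13150140 to 16781708 counts each. The tissue label was met by the markers: all 12 colonocyte genes were detected, at a summed 15107 to 18263 CPM (counts scaled to library size, here with edgeR's TMM factors) with B. thetaiotaomicron and 14979 to 17827 CPM with PBS. B. thetaiotaomicron sample 3 and PBS samples 1, 3 and 5 stood apart by 6 distal hindgut genes (Hoxb13, Hoxa13 and Hoxd10 to Hoxd13), summed to 507 CPM in that B. thetaiotaomicron sample and 541 to 798 CPM in those PBS samples, against 56.6 to 364 CPM in the other B. thetaiotaomicron samples and 14.5 to 192 CPM in the other PBS samples. PBS sample 4 stood apart in another way, with the lowest sum of these genes, 14.5 CPM, and with 3.38 CPM of Hoxa13 and 27.4 CPM of the colonocyte gene Aqp8. Hoxa13 spanned 49.6 to 98.9 CPM with B. thetaiotaomicron, and Aqp8 468 to 1037 CPM. Other genes of the same lists went the other way in PBS sample 4. Its Hoxd10 at 7.92 CPM, Car1 at 6214 CPM and Cdx2 at 401 CPM were the highest of the 14 libraries. Its colonocyte sum, 17827 CPM, was the highest of the PBS samples. Without PBS sample 4 the share of counts in the ribosomal protein genes differed by 0.026 percentage points, the median log2 fold change of the members was -0.001 with 40 of the 84 positive, and 0 members were called by edgeR, 3 having an unadjusted p below 0.05. Summed B cell markers spanned 21.7 to 135 CPM with B. thetaiotaomicron and 17.8 to 142 CPM with PBS. Macrophage markers spanned 852 to 1124 CPM with B. thetaiotaomicron and 658 to 896 CPM with PBS, and proliferation markers 738 to 1161 CPM with B. thetaiotaomicron and 602 to 955 CPM with PBS. All 10 macrophage and all 12 proliferation genes had a fitted change towards B. thetaiotaomicron. In each list 7 had an unadjusted p below 0.05 by edgeR, against 15.2% of all genes tested. Of these, Mpeg1 was called (edgeR, adjusted p = 0.0378), against 0.249% of all genes, and no proliferation gene was. In bulk tissue, fewer cells of a type and less RNA per cell cannot be told apart. The part of these cells in the values below was not tested, and what the 4 libraries do to a value is given where it matters.

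The share of the ribosomal protein genes in the transcriptome averaged the same in both groups. Together the 94 genes took 2.82% ± 0.15 of all counts with B. thetaiotaomicron and 2.82% ± 0.14 with PBS (SD, n = 7 each). By sample, the share was 2.71, 2.69, 2.86, 2.84, 2.94, 2.62 and 3.05% in B. thetaiotaomicron samples 1 to 7, and 2.77, 2.75, 2.95, 3.01, 2.92, 2.63 and 2.71% in PBS samples 1 to 7. The groups covered almost the same range, the highest and the lowest sample both being B. thetaiotaomicron samples. The difference was -0.00557 percentage points, a small part of the spread within either group, and leaving out single samples moved it between -0.044 and 0.027. The 4 libraries that stand apart left out, it was 0.032.

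**Figure D1:**
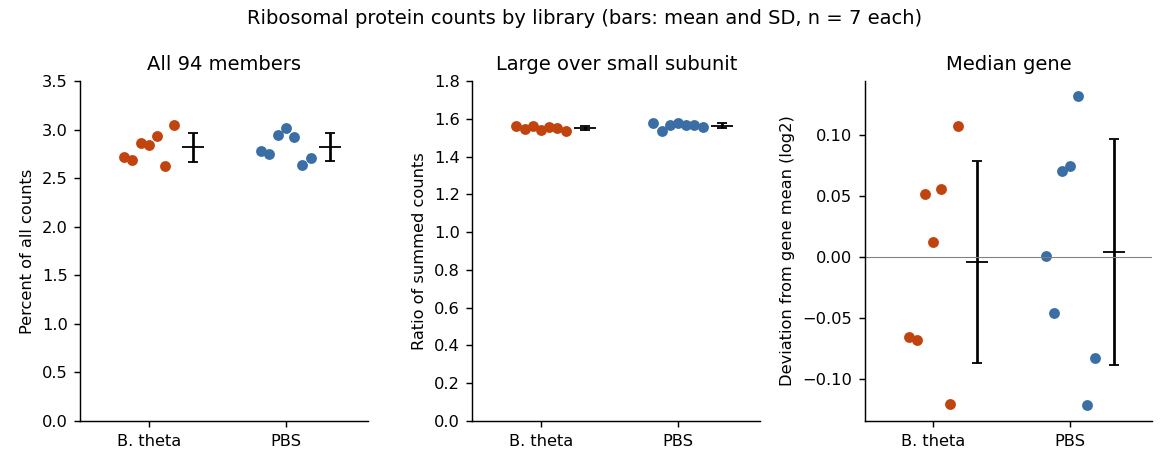
Ribosomal protein counts in each library, B. thetaiotaomicron left and PBS right, 1 point per sample in the order 1 to 7, with mean and SD (n = 7 each). The left panel gives the share of all counts in the 94 genes (2.62 to 3.05% with B. thetaiotaomicron and 2.63 to 3.01% with PBS), the middle panel the ratio of summed 60S to summed 40S counts, and the right panel the median over 72 genes of log2 CPM minus the gene's mean. The points of both groups cover the same range in the left and right panels.

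The proportion of the subunits lay close in the groups. The 40S genes held 1.09% ± 0.06 of counts with B. thetaiotaomicron and 1.09% ± 0.05 with PBS, and the 60S genes 1.70% ± 0.09 in both groups (SD, n = 7 each). The ratio of 60S to 40S counts was 1.55 ± 0.00959 with B. thetaiotaomicron and 1.56 ± 0.0135 with PBS, with ranges of 1.54 to 1.56 with B. thetaiotaomicron and 1.54 to 1.58 with PBS, which overlap. The sums are dominated by the most abundant mRNAs, so they say little of a protein whose mRNA is scarce.

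Gene by gene, no ribosomal protein gene passed the test. Of the 94, 84 passed the filter on low counts and were tested: 30 of the 40S genes, 45 of the 60S genes, 4 paralogs, 3 -ps genes and both other genes. At an adjusted p below 0.05 (edgeR's quasi-likelihood test, Benjamini-Hochberg over all 14070 genes tested) 0 of 84 were called, against 35 genes, or 0.249%, of all tested, so a count of 0 among 84 is near the background. By direction, 0.156% of all genes were called higher and 0.0924% lower with B. thetaiotaomicron. At an unadjusted p below 0.05 there were 4 of 84 members, 3 higher and 1 lower with B. thetaiotaomicron, against 15.2% of all genes. Those on the higher side were Rps23rg1, Rps2 and Rps27l. DESeq2, the other count test, called 1 of 84, against 3.18% of all genes. None of the 84 had groups that did not overlap, against 0.54% of all genes.

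The fitted changes were also small, and their intervals bound them. The median log2 fold change (B. thetaiotaomicron over PBS) was -0.016 over the 84 members, with quartiles of -0.044 and 0.015, and -0.013 over all genes tested, with quartiles of -0.11 and 0.093. It was -0.018 for the 40S genes, of which 12 were positive and 18 negative, and -0.016 for the 60S genes, of which 14 were positive and 31 negative. In all 32 of the 84 were positive, or 38.1%, against 46.2% of all genes. The 4 libraries that stand apart left out, the member median was 0.03 with 64 of the 84 positive. With single samples left out, the number positive ran from 18 to 53, and it was 49 without B. thetaiotaomicron sample 6. The balance of signs thus depends on which libraries are included. The 95% interval of the change, taken per gene, lay within 1.2-fold either way (0.26 on the log2 scale) for 68 of the 84, or 81%, against 34.4% of all genes and 59.4% of the 3709 genes with a mean log2 CPM of at least 6. It lay within 1.5-fold (0.58) for 80, or 95.2%, against 74.3% of all genes and 90.5% of those 3709 genes. Of the 75 standard subunit genes tested, 74 lay within 1.5-fold. The exception was Rps10, a 40S gene with few counts, whose interval was -0.60 to 0.45.

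**Figure D2:**
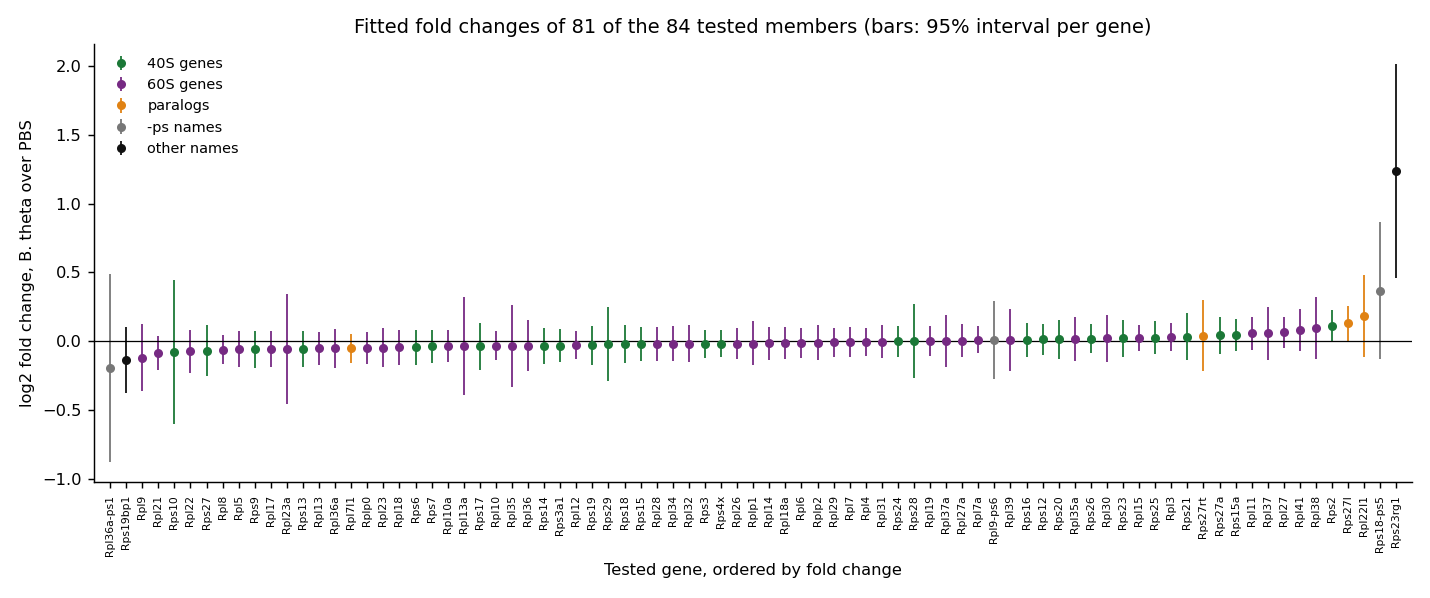
Fitted log2 fold change, B. thetaiotaomicron over PBS, of 81 of the 84 tested members in rising order, with the 95% interval per gene from edgeR's fit (unadjusted). Most intervals span 0 and lie within 0.26 of it. Rps23rg1 at the right end has the widest distance from 0, at 1.24, and the intervals of Rps23rg1, Rps2 and Rps27l leave out 0 without an adjusted p below 0.05.

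The ribosomal protein genes also varied less between samples than most genes. Their median standard error of the log2 change was 0.060, against 0.104 for all genes tested. For genes with a mean log2 CPM of at least 6 it was 0.068. The median SD of the members within groups was 0.107 log2 units, against 0.197 for all genes and 0.128 for genes of at least that level. Low spread was not particular to this family. For 34 translation initiation genes the median SD was 0.102, and for 14 elongation and termination genes 0.104. Their median standard error was 0.059 in both lists, and 85.3% and 71.4% of their intervals lay within 1.2-fold. Deep coverage narrows intervals, and 72 of the 76 standard genes had at least 10 CPM.

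Rps2, a 40S gene whose protein lies near the mRNA entry channel, is on chr17:24718116-24721929 (plus strand, GRCm38, GENCODE M21). Its level was 1007, 1067, 923, 1052, 903, 937 and 1031 CPM in B. thetaiotaomicron samples 1 to 7, and 879, 957, 873, 938, 921, 939 and 890 CPM in PBS samples 1 to 7. The groups overlapped: 4 B. thetaiotaomicron samples lay above every PBS sample and the others lay among them. The log2 fold change was 0.11 ± 0.052 (SE), which did not pass (edgeR, adjusted p = 0.317). Of the 50-base stretches of its mRNA, 79.0% also occur in transcripts of other annotated genes, all 71 of them pseudogenes, so its count may hold or lack reads of copies.

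Other 40S genes named by rule lay close to equality. Rps6, the substrate of the S6 kinases, averaged 637 ± 50.8 CPM with B. thetaiotaomicron and 657 ± 40.6 CPM with PBS (SD, n = 7 each), ranging from 584 to 721 CPM (median 613) with B. thetaiotaomicron and from 598 to 711 CPM (median 644) with PBS. Its log2 fold change was -0.044 ± 0.060, with an interval of -0.17 to 0.083. Rps19, whose human counterpart is mutated in Diamond-Blackfan anaemia, averaged 180 ± 13.6 CPM with B. thetaiotaomicron and 183 ± 17.9 CPM with PBS. Rps15, needed for export of the small subunit precursor, averaged 428 ± 31.6 CPM with B. thetaiotaomicron and 434 ± 27.6 CPM with PBS. Rps3a1, the gene of a core 40S protein, had a log2 fold change of -0.031 ± 0.057. The ranges of all 4 overlapped between the groups.

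Among the 60S genes, those of the P stalk recruit the translation factors. Rplp0 and Rplp1 were the highest of the standard genes by FPKM, while Rplp2 ranked 53rd of the 76. Rplp0 averaged 1544 ± 94.5 CPM with B. thetaiotaomicron and 1599 ± 87.8 CPM with PBS, with a log2 fold change of -0.050 ± 0.055. Rplp1 averaged 516 ± 33.2 CPM with B. thetaiotaomicron and 521 ± 63.9 CPM with PBS, and Rplp2 215 ± 10.7 CPM with B. thetaiotaomicron and 216 ± 19.4 CPM with PBS (SD, n = 7 each). The stalk genes did not differ beyond the spread between samples.

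Rpl5 and Rpl11, the Mdm2-binding pair, had fitted changes of opposite sign, neither passing. Rpl5 ranged from 593 to 744 CPM (median 655) with B. thetaiotaomicron and from 631 to 742 CPM (median 713) with PBS, a log2 fold change of -0.058 ± 0.062. Rpl11 ranged from 312 to 370 CPM (median 346) with B. thetaiotaomicron and from 296 to 373 CPM (median 331) with PBS, a log2 fold change of 0.057 ± 0.056. Whether the 2 changes differ from each other was not tested. Rpl3 and Rpl10, whose proteins lie near the peptidyl transferase centre, had log2 fold changes of 0.031 ± 0.047 and -0.032 ± 0.049. Rpl39, of the exit tunnel, stood at 0.011 ± 0.106, and Rpl36a at -0.052 ± 0.066.

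The 60S genes with the smallest p-values in each direction were Rpl21, Rpl8, Rpl9 and Rpl22 on the lower side and Rpl27, Rpl41 and Rpl11 on the higher. Rpl21 averaged 86.6 ± 5.31 CPM with B. thetaiotaomicron and 91.8 ± 7.83 CPM with PBS (log2 fold change -0.084 ± 0.058; edgeR, adjusted p = 0.529). Rpl41, which encodes the smallest ribosomal protein, averaged 528 ± 41.8 CPM with B. thetaiotaomicron and 499 ± 51.1 CPM with PBS (0.083 ± 0.072; edgeR, adjusted p = 0.627). No 60S gene had an unadjusted p below 0.05 by edgeR, the smallest being 0.171, and DESeq2 called none of them at an adjusted p below 0.05. Of the ribosomal proteins outside the name rule, Rpsa, which is also known as a laminin receptor, had a log2 fold change of 0.022 ± 0.047 and Fau, which encodes a ubiquitin-like fusion with a 40S protein, one of -0.055 ± 0.069. For Rack1, the gene of a 40S scaffold protein, it was -0.046 ± 0.051, and none of these passed.

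The product of some paralogs can replace a standard protein in some tissues, and 4 of the 8 paralogs had enough counts to be tested. Rps27l, the highest of them per kilobase of mRNA, is on chr9:66946086-66949516 (plus strand). It had 65.8, 76.5, 61, 75.3, 64.6, 64.3 and 74.7 CPM in B. thetaiotaomicron samples 1 to 7, and 62, 63.8, 68, 65.2, 62.6, 60.4 and 58.6 CPM in PBS samples 1 to 7. B. thetaiotaomicron samples 2, 4 and 7 lay above all PBS samples and the other 4 among them. The log2 fold change was 0.13 ± 0.059 (edgeR, adjusted p = 0.318). Rps27, the standard gene, averaged 119 ± 14.8 CPM with B. thetaiotaomicron and 125 ± 14.1 CPM with PBS, a log2 fold change of -0.068 ± 0.086. Rps27rt averaged 35.1 ± 6.35 CPM with B. thetaiotaomicron and 34.1 ± 5.24 CPM with PBS, one of 0.042 ± 0.121. Per kilobase of mRNA, the means of the 14 samples were 353 CPM for Rps27, 132 for Rps27l and 92.5 for Rps27rt. Rps27 and Rps27rt share 98.6% and 91.1% of their 50-base stretches with each other, so the division of reads between these 2 is uncertain, while Rps27l shares none with either.

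Rpl22l1, the paralog of Rpl22, ranged from 6.89 to 13.6 CPM (median 9.04) with B. thetaiotaomicron and from 6.89 to 8.9 CPM (median 8.65) with PBS. The fitted log2 fold change was 0.18 ± 0.140. Rpl22 itself averaged 139 ± 13.3 CPM with B. thetaiotaomicron and 147 ± 14 CPM with PBS (-0.074 ± 0.072), and neither gene passed. Without B. thetaiotaomicron sample 4 the Rpl22l1 value was 0.066. Rpl7l1, a paralog of Rpl7 known from ribosome assembly, averaged 84.7 ± 4.8 CPM with B. thetaiotaomicron and 87.7 ± 4.99 CPM with PBS (-0.050 ± 0.049).

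The remaining paralogs had counts near or at 0. Rpl3l, known from heart and skeletal muscle, averaged 0.0661 CPM with B. thetaiotaomicron and 0.0873 CPM with PBS, and Rpl39l, known from testis, 0.00897 CPM with B. thetaiotaomicron and 0.00928 CPM with PBS. Rpl36al, a retrocopy of Rpl36a, averaged 0.407 ± 0.152 CPM with B. thetaiotaomicron and 0.534 ± 0.266 CPM with PBS. Gm49383, an annotated gene that overlaps Rpl36al, holds 59.5% of the stretches of its mRNA and had a count of 0 in every library. Whether the low count of Rpl36al reflects low expression or lost reads was not tested. Rpl10l, the testis copy of Rpl10, had a count of 0 in all 14 libraries, as had Rpl36-ps4, Rpl9-ps1, Rplp2-ps1 and Rps18-ps6. A count of 0 allows up to 3 counts, or 0.179 to 0.228 CPM by library, for counting error only. Rpl10-ps3 averaged 0.554 ± 0.189 CPM with B. thetaiotaomicron and 0.5 ± 0.24 CPM with PBS. These 9 members and the 60S gene Rpl24 make up the 10 that were not tested.

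Rps23rg1 had the largest fitted change, and it is the member that DESeq2 called. It is annotated as a retroposed gene derived from Rps23, on chr8:3567990-3584939 (plus strand, 2 exons), and is not a standard ribosomal protein gene. Its level was 0.816, 0.646, 1.56, 0.943, 1.7, 0.739 and 1.4 CPM in B. thetaiotaomicron samples 1 to 7, and 0.157, 0.656, 0.119, 0.455, 0.63, 0.471 and 0.765 CPM in PBS samples 1 to 7. B. thetaiotaomicron samples 2 and 6 fell within the PBS range and the other 5 above it. In all there were 114 counts with B. thetaiotaomicron and 49 with PBS, so single counts weigh heavily. The log2 fold change was 1.24 ± 0.366 with an interval of 0.46 to 2.01 (edgeR, adjusted p = 0.133), and 1.26 ± 0.393 by DESeq2 (adjusted p = 0.0462). Over the alternatives the adjusted p ran from 0.0462 to 0.458, the lowest by DESeq2 and the highest without the 4 libraries that stand apart, where the change was 0.81. PBS samples 1 and 3, the lowest, are among those 4 libraries. With a minimum of 1 CPM in 7 samples the gene drops out. Rps23 itself, a decoding centre protein gene, averaged 351 ± 22.6 CPM with B. thetaiotaomicron and 346 ± 30.1 CPM with PBS (0.021 ± 0.062).

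**Figure D3:**
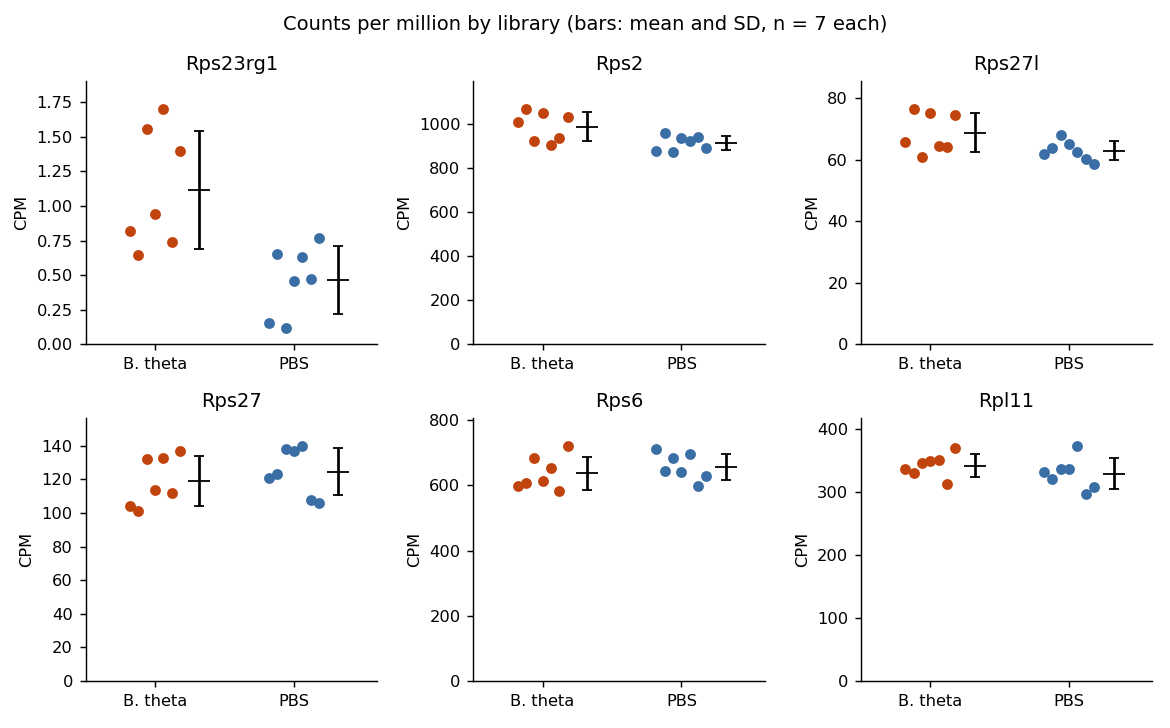
CPM by library for the 3 members on the higher side with an unadjusted p below 0.05 (Rps23rg1, Rps2, Rps27l) and for Rps27, Rps6 and Rpl11, B. thetaiotaomicron left and PBS right, with mean and SD (n = 7 each) and every axis from 0. The groups overlap in all 6 panels. In Rps23rg1, 5 B. thetaiotaomicron samples lie above the highest PBS sample at 0.765 CPM.

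The other member outside the subunit lists, Rps19bp1, encodes a protein that binds Rps19 and regulates Sirt1. It averaged 13.8 ± 2.22 CPM with B. thetaiotaomicron and 15.2 ± 1.88 CPM with PBS (-0.14 ± 0.114; edgeR, adjusted p = 0.604). The -ps genes that were tested also did not pass. Rps18-ps5 had 1.65 ± 0.517 CPM with B. thetaiotaomicron and 1.28 ± 0.307 CPM with PBS (0.37 ± 0.234). Rpl36a-ps1 had 0.714 ± 0.274 CPM with B. thetaiotaomicron and 0.815 ± 0.359 CPM with PBS (-0.19 ± 0.323), and Rpl9-ps6 63 ± 9.61 CPM with B. thetaiotaomicron and 62.6 ± 14 CPM with PBS (0.010 ± 0.134). Despite their names, all 7 -ps genes found in GENCODE M21 are annotated there as protein-coding. Rpl9-ps6 shares 89.2% of its 50-base stretches with Rpl9, a 60S gene at 319 ± 48.8 CPM with B. thetaiotaomicron and 347 ± 59.2 CPM with PBS, so the 2 counts are not independent measurements.

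In the lists of other translation genes, edgeR called no gene either, and the counts at an unadjusted p below 0.05 stand beside 15.2% of all genes tested, from which none of these lists was tested to differ. None of the 77 tested genes of the mitochondrial ribosome (Mrpl and Mrps names), which makes the few proteins of the mitochondrial genome, passed by edgeR, and 5 of them had an unadjusted p below 0.05. Their median log2 fold change was 0.015. DESeq2 called 1 of them, Mrpl34, at 38.4 ± 3.48 CPM with B. thetaiotaomicron and 46.7 ± 5.05 CPM with PBS (-0.28 ± 0.082; DESeq2, adjusted p = 0.0334; edgeR, adjusted p = 0.112). Of 55 ribosome biogenesis genes 0 passed by edgeR, with 5 at an unadjusted p below 0.05 and 0 called by DESeq2. Among them Rrn3, the initiation factor of RNA polymerase I, averaged 33.8 ± 3.25 CPM with B. thetaiotaomicron and 39.2 ± 2.71 CPM with PBS (-0.21 ± 0.068; edgeR, adjusted p = 0.158). Utp20, of the small subunit processome, averaged 113 ± 8.02 CPM with B. thetaiotaomicron and 88.7 ± 17.5 CPM with PBS (0.34 ± 0.114; edgeR, adjusted p = 0.172).

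Of 34 translation initiation genes and 14 elongation and termination genes 0 passed by edgeR, and DESeq2 called 0, against 3.18% of all genes. At an unadjusted p below 0.05 by edgeR there were 4 and 3, against 15.2% of all genes. The lowest p-value among the initiation genes was that of Eif1, which governs start codon choice, at 207 ± 13.3 CPM with B. thetaiotaomicron and 243 ± 31.8 CPM with PBS (-0.24 ± 0.076; edgeR, adjusted p = 0.164). Of 26 mTOR and TOP regulators 0 passed by edgeR, with 5 at an unadjusted p below 0.05 and 1 called by DESeq2. That gene was Larp4, whose product binds poly(A) tails and is known to stabilise ribosomal protein mRNAs. It averaged 135 ± 8.75 CPM with B. thetaiotaomicron and 154 ± 11 CPM with PBS (-0.19 ± 0.060; DESeq2, adjusted p = 0.0477; edgeR, adjusted p = 0.125). Mrpl34 was named after its value was seen. Of 9 genes of the ribosomal protein and p53 pathway 0 passed by edgeR and 0 were called by DESeq2. At an unadjusted p below 0.05 by edgeR there were 2, against 15.2% of all genes. Their median log2 fold change was -0.079, against -0.013 over all genes tested.

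Across libraries, the ribosomal protein genes moved together within both groups. In 72 standard genes with at least 10 CPM, the correlation of log2 CPM between pairs of genes over the 14 samples, after the group means were taken off, had a median of 0.730 and quartiles of 0.607 and 0.822. These samples share library depth and scaling, so the values are descriptions. Pairwise correlations were not taken for other genes, so whether they are particular to this family was not tested. With the mean of the others, 69 of the 72 genes had a correlation above 0.5, the highest being that of Rps20, at 0.971. The exceptions included Rpl29 at 0.451 and Rps2, the lowest, at -0.157. In B. thetaiotaomicron sample 7, 71 of the 72 genes lay above their own mean, and in B. thetaiotaomicron sample 6 only 1 did. PBS samples 5 and 6 stood likewise, with 67 and 2 of the 72 above.

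**Figure D4:**
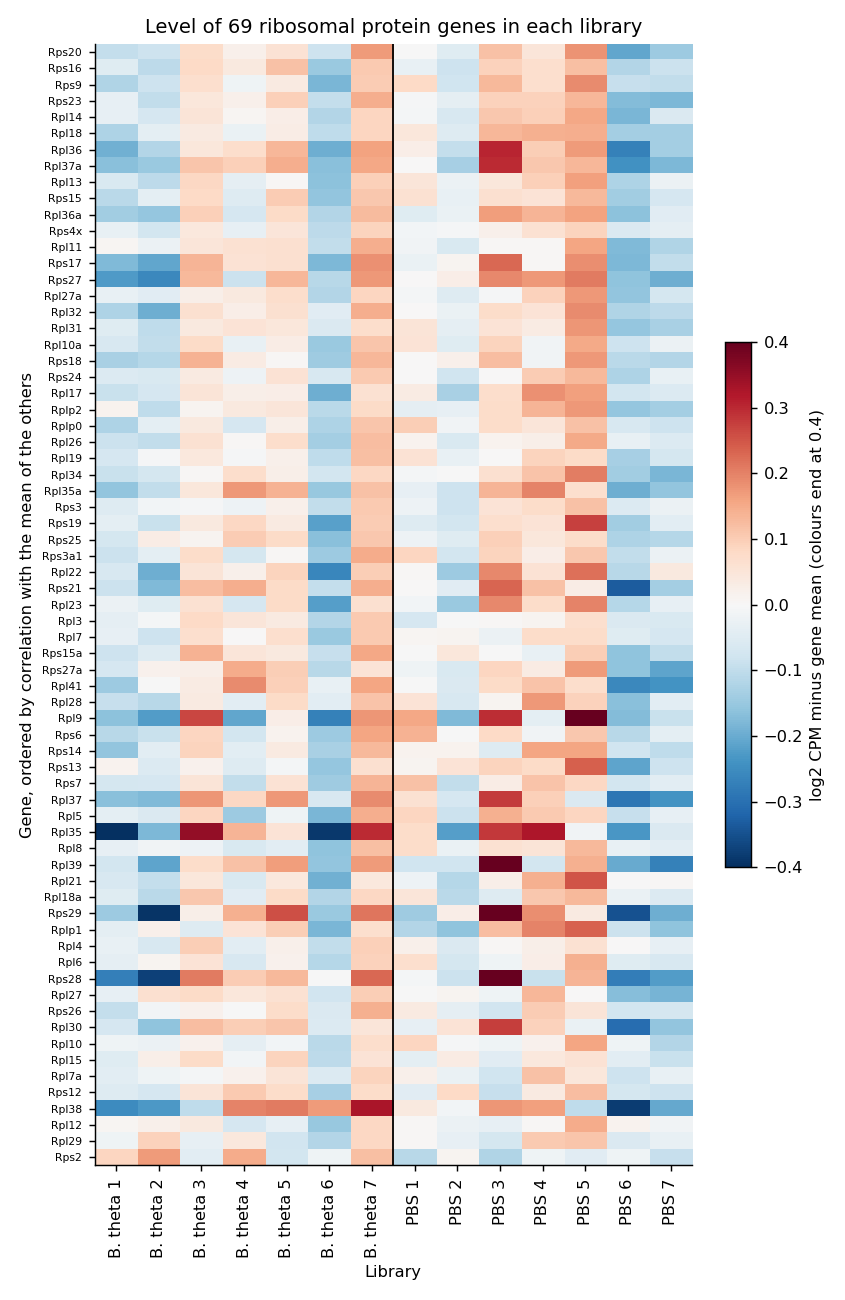
Log2 CPM minus the gene's mean for 69 of the 72 standard ribosomal protein genes (rows, ordered by correlation with the mean of the others) in the 14 libraries, B. thetaiotaomicron left of the line and PBS right. Columns tend to be of 1 colour, with B. thetaiotaomicron 7 and PBS 5 high and B. thetaiotaomicron 6 and PBS 6 low. Rps2 at the bottom does not follow the others.

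The size of these shared shifts was small. The median of the 72 genes deviated from the gene means by -0.121 log2 units in the lowest B. thetaiotaomicron sample and 0.108 in the highest, and by -0.122 in the lowest PBS sample and 0.132 in the highest. Genes with short mRNAs swung more: the median SD within groups was 0.143 for the 16 with an mRNA under 500 bases and 0.094 for the 56 longer ones. The short ones also had fewer counts, at a median of 145 CPM against 402 CPM, so length and depth cannot be told apart in this difference. The most variable were Rpl35 (SD 0.273), Rps29 (0.255), Rps28 (0.253), Rpl9 (0.226) and Rpl38 (0.218), and Rps28, Rps29 and Rpl39 were high together in PBS sample 3.

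The 10 other genes whose log2 CPM followed the mean of the tested members most closely over the 14 samples, group means taken off, were Tpt1, Eef1b2, Hint2, Tprkb, Fau, Echs1, Rbak, Tstd1, Ndufa2 and Atraid. Tpt1, which encodes translationally controlled tumour protein, had a Pearson r of 0.936 (Spearman rho 0.912), and Eef1b2, an elongation factor subunit gene, one of 0.927 (rho 0.916). Without the 2 samples farthest from the median, r was 0.914 for Tpt1 and 0.909 for Eef1b2. They were picked as the highest of all genes, so no p-value is given.

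Levels per length differed widely between genes whose proteins are, for the most part, needed in equal numbers. The deposited FPKM of the 76 standard genes, averaged over the 14 samples, had a median of 160 and quartiles of 87.2 and 272, from 0.222 for Rpl24 to 1038 for Rplp1. Those FPKM divide by a gene length with a median of 1776 bases, against 716 bases for the main mRNA of each gene in GENCODE M21. Set per kilobase of that mRNA, which was done after the data were seen, the median was 421 CPM per kilobase with quartiles of 285 and 631, and Rpl41 was highest at 1174. The upper quartile was 3.12 times the lower by FPKM and 2.21 times by mRNA length, so part of the spread in FPKM went with the length used. Rps15a, for example, has a deposited length of 6270 bases, the longest of the 76, and an mRNA of 640 bases. It ranked 65th by FPKM and 33rd by mRNA length.

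The lowest of the standard genes stayed low on either scale. Rpl24, Rps10, Rpl13a, Rpl23a and Rpl35 were under 10 FPKM, at 0.222, 1.21, 1.74, 7.27 and 9.32. Rpl24 encodes a protein of the bridge between the subunits, and had 0 to 8 counts per library. Rps10 encodes a protein of the 40S head that is modified at stalled ribosomes, and Rpl13a one known in human cells for silencing inflammatory mRNAs. These 3 have in common an annotated gene on the same strand that overlaps them and holds most of their mRNA: 69.4% of the 50-base stretches of Rpl24 occur in Gm28037, 90.6% of those of Rps10 in RPS10-NUDT3 and 57.4% of those of Rpl13a in Gm45713. RPS10-NUDT3 and Gm45713 are in the table with a count of 0 in every library, and Gm28037 is not among the genes analysed here. Whether reads that match overlapping genes were dropped in counting was not tested, for these genes or for the paralog Rpl36al.

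**Figure D5:**
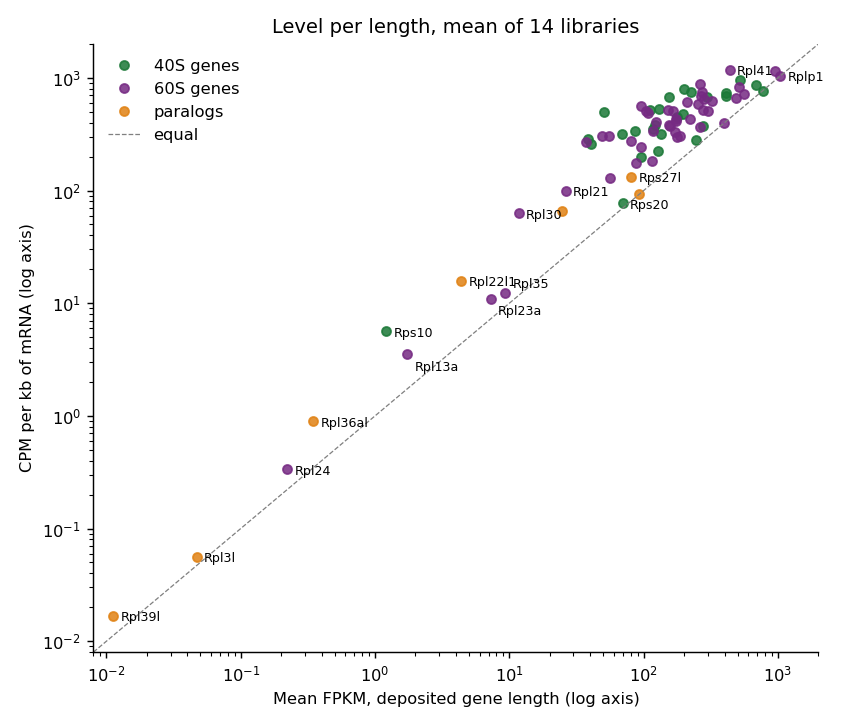
Level per length of standard and paralogous genes with a count (a few are not shown), as the mean of the 14 libraries, with the deposited FPKM across and CPM per kilobase of mRNA upwards (both axes logarithmic, dashed line at equality). Most standard genes lie between 38 and 464 FPKM, the 10th and 90th percentiles, and above the line. Rpl24, Rps10, Rpl13a, Rpl23a and Rpl35 lie apart at the lower left, among the paralogs.

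Copies elsewhere in the genome touch most of the family. Over the 76 standard genes, a median of 56.5% of the 50-base stretches of the mRNA also occur in annotated transcripts of other genes, with quartiles of 38.4% and 78.5%. The highest share was 98.6%, for Rps27. Rpl23a, at 82.6% and with 28 pseudogenes, is among the low ones, and Rps2, at 79.0%, is among the highest. Whether sharing and level go together over the 76 genes was not tested. The 93 members found in GENCODE M21 lie on 20 chromosomes, 14 of them on chromosome 7 and 9 on chromosome 17, so the level of the family in each library rests on loci spread over the genome.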

How the data were processed

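RNA was column-purified and made into libraries with a SMARTER mRNA kit, per the labels' protocols. The authors deposited raw read counts per gene, with FPKM and a gene length, per the file headers. The deposited FPKM equal the count over length and library total in 100% of nonzero values (within 0.1%) and served only for levels. The aligner, the counter and the use of strand are not named in the sources at hand. The submitters' processing notes name GRCm38 and mm10, but only 657 of 21845 shared identifiers start where GENCODE M21 has them. Positions therefore come from GENCODE M21. Groups were taken from titles.

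Genes were kept with filterByExpr (minimum count 10, minimum total 15), scaled by TMM and tested with edgeR 4.0.16 in R 4.3.3 (quasi-likelihood F test, two-sided, robust, group as the only term, Benjamini-Hochberg over 14070 genes, threshold 0.05). Log2 CPM used a prior count of 2, and a standard error is the fold change over the square root of F. The script was tested on simulated data. Depth of 13150140 to 16781708 counts and a biological coefficient of variation of 0.21 set the precision. Alternatives were other scalings and filters, non-robust dispersions, a replicate block, 1 surrogate variable (sva 3.50.0), limma-voom 3.58.1, DESeq2 1.42.0, leaving out each sample, and leaving out the 4 libraries that stand apart.

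The main mRNA was chosen by protein-coding type, then a consensus coding sequence, then the GENCODE basic and APPRIS principal tags. Among transcripts equal in these the shortest was taken, which is still long for some genes (3706 bases for Rps20). Members and gene lists were chosen with earlier results of these data known. Named members are the 8 of lowest p in either direction at 1 CPM or more, the 4 highest and 4 lowest by FPKM, a set of well-known genes, and all paralogs and irregular names. Further examples were picked with their values known. The paralog Rps4l was not analysed here. A few genes that this rule takes in, or that stand beside the members, are not reported in the text or figures, though counts and medians include them. Figures were drawn with matplotlib 3.10.9.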

Additional observations from a re-analysis of the deposited data

How the results depend on the processing

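The count of ribosomal protein genes passing stayed at 0 in all edgeR and limma settings, and was 1 with DESeq2 (Rps23rg1, log2 fold change 1.26, adjusted p = 0.0462). The count over all genes was 35 in the reported fit, 447 with DESeq2, 58 with 1 surrogate variable, 0 without the 4 libraries that stand apart, and 0 to 121 when single samples were left out. With the replicate number as a block it was 15, and 0 members passed. Same-numbered samples correlated between -0.26 and 0.602. These values were not compared with those of differently numbered samples, so whether the numbers pair the samples was not tested. The member median ranged from -0.034 to 0.03 over the settings and was 0.010 with 1 surrogate variable; single samples left out moved it between -0.034 and 0.016.

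Of 33 named members tested, 19 kept their sign in every setting, and no value that changed sign passed. With 1 surrogate variable the sign changed for Rpl13a (0.087), Rps15 (0.009), Rps19 (0.002) and Rps3a1 (0.001). Without the 4 libraries it changed for Rpl10 (0.013), Rpl13a (0.184), Rpl36a-ps1 (0.121), Rpl7l1 (0.018), Rpl9 (0.019), Rplp1 (0.054), Rps10 (0.124), Rps15 (0.026), Rps19 (0.035), Rps3a1 (0.018) and Rps6 (0.007). With single samples left out, values ran from -0.03 to 0.11 for Rpl39, -0.056 to 0.086 for Rpl9-ps6, -0.127 to 0.041 for Rpl13a, -0.043 to 0.03 for Rplp1, -0.043 to 0.006 for Rps15, -0.052 to 0.025 for Rps19, -0.019 to 0.103 for Rps27rt and -0.195 to 0.086 for Rps10. The cause was not tested. Low counts widen the intervals of Rps23rg1, Rpl36a-ps1, Rps10 and Rps18-ps5, among others, and reads shared with copies limit the family.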
